A study of Mus musculus with 1012 samples.

Results

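Single LPS-treated macrophage biopsies of wild-type RAW264.7 cells were set against biopsies of RAW-G9 cells, a subline of the same parent. The members were taken by their labels, as the Live-seq libraries marked LPS_treated of either line, and numbered 50 of the 1012 libraries of the series. They comprised 11 wild-type cells, all in batch 5Reseq, and 39 RAW-G9 cells in batches 6 (4 cells), 7 (16 cells), 8_8 (9 cells) and 9_4 (10 cells). RAW264.7 is a mouse macrophage line. RAW-G9 is 1 clone of it that carries 2 transgenes, mCherry driven by the Tnf promoter and an EGFP-Rela fusion, which the wild-type cells lack. LPS, or lipopolysaccharide of bacterial walls, had been given to both lines 4 to 5 h before cytoplasm was drawn, and the dose differs between the series text and the methods and is not compared here. Each library was made by an enhanced Smart-seq2 protocol from a fraction of the cytoplasm of 1 living cell. Among the RAW-G9 cells, 5 had been sampled once before, and no wild-type cell is labelled as sampled before. No batch held both lines under LPS, so line and batch cannot be told apart in any value given here.

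LPS is sensed by macrophages through CD14, MD-2 and TLR4. The adaptor MyD88 leads from the receptor to NF-kB and to cytokines such as TNF, whereas the adaptor TRIF leads to IRF3, to type I interferon and, through the interferon receptor, to interferon-stimulated genes such as Cxcl10, Rsad2 and the Ifit genes. Macrophage lines kept in culture, and single clones drawn from them, can differ in the genes that they express before any stimulus.

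Levels are given as CPM, counts scaled so that the kept counts total 1000000, of the cells of a batch summed together, so that there was 1 wild-type sum and there were 4 RAW-G9 sums. A gap is the distance on the log2(CPM + 10) scale from the wild-type sum to the nearest RAW-G9 sum, and it is compared with the range of the 4 RAW-G9 sums on the same scale. Total counts per cell were 363579 to 727437 in wild-type and 69292 to 1074064 in RAW-G9 cells, with batch 8_8 the shallowest (median 160089 kept counts against 453342 in wild-type). Genes detected per cell had a median of 4401 in wild-type and of 2142, 2994, 1855 and 4279 in batches 6, 7, 8_8 and 9_4. The share of counts from mitochondrial genes had a median of 10.2% in wild-type and 6.26% in RAW-G9 cells. Beside the LPS-treated cells, batch 5Reseq held 1 wild-type Mock cell, in which fewer genes were detected than in any of the 11 LPS-treated ones.

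The promoters of 6 genes with large differences are shown first, as a description of the lysozyme pair and of some interferon-stimulated genes. They are from RefSeq (GRCm38.p6) and run from 250 bases before to 50 bases after the start of the gene. The lysozyme pair is shown because Lyz1 and Lyz2 are neighbours with similar promoters and different levels in RAW-G9 cells. Of the aligned positions of these 2 promoters, 82.5% were identical. They lie at chr10:117292819-117293118 (Lyz1, minus strand) and chr10:117282223-117282522 (Lyz2, minus strand).
Lyz1: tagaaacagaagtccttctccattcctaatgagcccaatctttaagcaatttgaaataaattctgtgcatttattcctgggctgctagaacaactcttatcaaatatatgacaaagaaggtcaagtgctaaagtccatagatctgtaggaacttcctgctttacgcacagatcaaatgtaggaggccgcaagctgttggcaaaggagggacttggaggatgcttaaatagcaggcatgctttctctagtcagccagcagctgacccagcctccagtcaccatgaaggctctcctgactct
Lyz2: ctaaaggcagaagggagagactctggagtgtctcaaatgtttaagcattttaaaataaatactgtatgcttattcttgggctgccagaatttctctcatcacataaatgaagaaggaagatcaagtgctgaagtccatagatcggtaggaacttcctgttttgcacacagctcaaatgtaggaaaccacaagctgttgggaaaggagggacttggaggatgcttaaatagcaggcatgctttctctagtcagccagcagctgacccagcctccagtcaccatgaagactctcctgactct
The other 4 belong to interferon-stimulated genes that were higher in wild-type cells and are shown because they hold the response element described next. Capitals mark matches on either strand to the core of the interferon-stimulated response element (GAAA, any 2 bases, then GAAA) and to the kappaB consensus. The first was found in 3.45% and the second in 8.49% of 32544 RefSeq promoters of this length, and no match to one overlapped a match to the other in these 4 promoters. They lie at chr5:92348840-92349139 (Cxcl10, minus strand), chr12:26456403-26456702 (Rsad2, minus strand), chr19:34640639-34640938 (Ifit1, plus strand) and chr19:34583279-34583578 (Ifit3, plus strand).
Cxcl10: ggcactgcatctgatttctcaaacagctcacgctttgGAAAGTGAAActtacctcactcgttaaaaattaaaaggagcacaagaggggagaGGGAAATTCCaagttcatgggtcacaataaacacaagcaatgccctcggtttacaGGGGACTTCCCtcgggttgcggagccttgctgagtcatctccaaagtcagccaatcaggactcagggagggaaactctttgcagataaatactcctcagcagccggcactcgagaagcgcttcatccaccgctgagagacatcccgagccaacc
Rsad2: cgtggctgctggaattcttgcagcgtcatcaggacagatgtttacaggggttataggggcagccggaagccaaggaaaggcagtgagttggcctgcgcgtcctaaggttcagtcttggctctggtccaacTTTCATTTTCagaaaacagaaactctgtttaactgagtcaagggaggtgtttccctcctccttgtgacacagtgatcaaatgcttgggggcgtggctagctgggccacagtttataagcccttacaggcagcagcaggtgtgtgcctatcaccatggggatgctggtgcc
Ifit1: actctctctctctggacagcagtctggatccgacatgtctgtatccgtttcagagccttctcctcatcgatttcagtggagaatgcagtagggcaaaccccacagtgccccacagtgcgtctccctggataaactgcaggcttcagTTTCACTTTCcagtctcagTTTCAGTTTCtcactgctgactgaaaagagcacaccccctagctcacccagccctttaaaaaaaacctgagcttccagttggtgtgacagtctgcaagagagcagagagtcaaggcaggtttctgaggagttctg
Ifit3: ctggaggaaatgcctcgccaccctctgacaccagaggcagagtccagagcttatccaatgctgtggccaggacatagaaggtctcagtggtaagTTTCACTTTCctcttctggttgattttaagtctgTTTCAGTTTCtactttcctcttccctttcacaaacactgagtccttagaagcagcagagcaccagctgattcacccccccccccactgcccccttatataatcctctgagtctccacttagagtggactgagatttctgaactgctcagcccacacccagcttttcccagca
Cxcl10 carried 1 match to the response element and 3 matches to the kappaB consensus, 2 of them overlapping, Rsad2 carried 1 match to the response element, and Ifit1 and Ifit3 carried 2 each. Of the 22 genes on the interferon list, 16 had a promoter in the table and 9 of these held the response element. Of the 9 list genes above RAW-G9 by a gap over 1, 7 had a promoter, and the 4 shown held the element whereas Ifit2, Cmpk2 and Oasl1, which were higher as well, had no match to it. A match is a stretch of letters and was not tested as a binding site.

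The labels were first checked against the transgenes. mCherry had no counts in any of the 11 wild-type cells, and stood at 998.3, 1203, 636.8 and 1696 CPM in the RAW-G9 sums of batches 6, 7, 8_8 and 9_4, with counts in 32 of 39 cells. EGFP had 1 count in 1 wild-type cell and 421.1, 172.7, 81.8 and 276.02 CPM in the RAW-G9 sums. The sums of both transgenes followed the labels, whereas single RAW-G9 cells could lack counts, 7 of 39 for mCherry and 11 of 39 for EGFP. RAW-G9 mCherry was at least 2209-fold higher over the pooled cells, against the level that 3 counts over the wild-type cells would give. Markers of macrophages were present in both lines, and 0 of 14 genes of adipose and mesenchymal cells passed the filter, with a summed level of 2.12 CPM in wild-type and 0 to 1.66 CPM in the RAW-G9 sums. Of this list, Pdgfra, Pdgfrb, Thy1 and Dcn had no counts in any of the 50 cells. Some other members were counted at low levels, among them Col1a1 in 5 and Fn1 and Sparc in 3 of 39 RAW-G9 cells. Any member was counted in 1 of 11 wild-type and 10 of 39 RAW-G9 cells. The list summed to at most 20.7 CPM in a wild-type and 23.8 CPM in a RAW-G9 cell.

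Across 9011 genes tested, the wild-type sum lay above all 4 RAW-G9 sums for 2253 genes (25%) and below all of them for 10.0%. Of the genes tested, 6.75% lay above and 2.31% below by a gap over 1, and for 4.37% and 1.12% of the genes tested this gap also exceeded the range of the RAW-G9 sums. Interchangeable sums would put the wild-type sum highest with a probability of 0.2, and lowest likewise, ties aside. The filter asks for a share of the cells of either line, so fewer wild-type than RAW-G9 cells suffice to pass it. Sparse genes thus enter more easily when counted in wild-type, and a gene without counts in a RAW-G9 sum can never lie below. How much this adds to the shares above was not tested, and the tested members of the gene lists passed the same filter. The RAW-G9 range had a median of 2.19 over the genes tested. The difference between wild-type and the mean of the RAW-G9 sums had a median size of 0.72. A range of 4 sums and a distance from their mean are unlike measures, so the 2 are not compared. In edgeR's quasi-likelihood test of 1 sum against 4, no gene was called in either direction (0.0% of 9011) at a Benjamini-Hochberg adjusted p under 0.05 and a log2 fold change over 1 in size. At an unadjusted p under 0.05 there were 4.66% of the genes in this test, 8.33% in the edgeR 4 fit and 3.11% in DESeq2. In the first, the lowest adjusted p was 0.119, for Lyz1 and mCherry. The same counts gave 7 genes higher (0.0777%) and 2 lower (0.0222%) in wild-type under the newer quasi-likelihood fit of edgeR 4, and 7 higher (0.0777%) and 19 lower (0.211%) under DESeq2. These tests take the lone wild-type sum to vary as the RAW-G9 sums do. For this reason the genes below are described by their levels and by whether cells and sums overlapped.

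**Figure D1:**
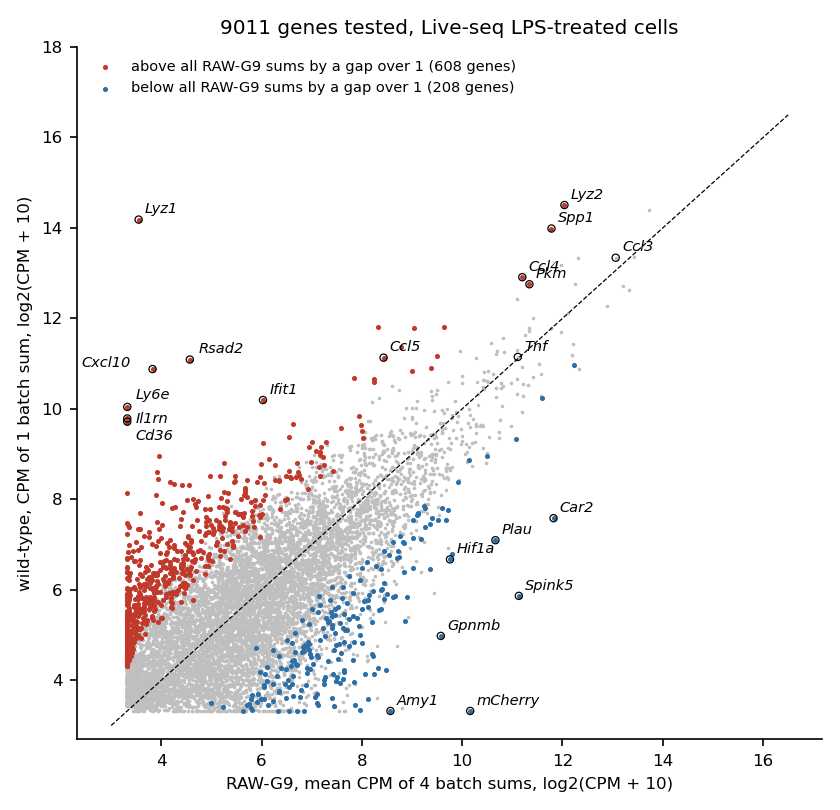
Level of each of the 9011 genes tested in the wild-type sum (vertical axis) against the mean of the 4 RAW-G9 sums (horizontal axis), both as log2(CPM + 10), with the dashed line marking equal levels. Red points are the genes above (6.75%) and blue points those below (2.31%) all RAW-G9 sums by a gap over 1. Lyz1 stands farthest from the line above it and mCherry, Spink5, Amy1 and Car2 lie far below it.

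Lyz1, a secreted lysozyme that digests bacterial cell walls, had the largest gap of all genes above the RAW-G9 range. It stood at 18614 CPM in wild-type and at 5.67, 0.704, 0 and 0.414 CPM in RAW-G9 batches 6, 7, 8_8 and 9_4. All 11 wild-type cells had counts, from 1293 CPM in the lowest over a median of 9324 to 57424 CPM in the highest, whereas the highest of 39 RAW-G9 cells had 15.3 CPM. The lines did not overlap in a single cell. The gap was 10.21 against a RAW-G9 range of 0.65, and the pooled level was 19278-fold higher (95% counting interval 12040 to 33094). Lyz1 gave an adjusted p of 0.119 in edgeR's quasi-likelihood test, of 1.08e-08 in the edgeR 4 fit and of 6.68e-08 in DESeq2. Without LPS, the single wild-type Mock cell had 16983 CPM and RAW-G9 Mock sums had 1.62 to 7.67 CPM in Live-seq. Whole RAW-G9 cells, in libraries independent of the biopsies, had 0.242 to 42.5 CPM after LPS and 0 to 11.3 CPM in Mock. Lyz2, the neighbouring lysozyme gene of macrophages, is 5475 bases from Lyz1 on chromosome 10 and was expressed by both lines. It had 23261 CPM in wild-type and 4760, 6861, 3631 and 1543 CPM in the RAW-G9 sums, above all of them by a gap of 1.76, which is less than their range of 2.15. The transcripts of the pair share 6.22% of the 75-base stretches of Lyz1, the length of read 1, and reads from those stretches cannot be assigned to either gene.

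Ly6e (chr15:74955051-74959905, GRCm38), a GPI-anchored surface protein and interferon-stimulated gene, was the other gene whose lowest wild-type cell exceeded the highest RAW-G9 cell, so that 2 of 9011 genes (0.0222%) separated every cell of the lines in this direction and none (0.0%) in the other. It stood at 1045 CPM in wild-type, with counts in 11 of 11 cells (100%, exact 95% interval 71.5 to 100), from 62.7 over a median of 953.7 to 2051 CPM. No count was found in 39 of 39 RAW-G9 cells (0%, exact 95% interval 0 to 9.03), so that the wild-type level was at least 6135-fold higher than 3 counts over the RAW-G9 cells. Ly6e was counted in the wild-type Mock cell at 229.3 CPM, and its highest sum in any RAW-G9 library set, whole cells after LPS, was 8.45 CPM. Of the other 10 measured genes of its cluster on chromosome 15, among them Ly6a, Ly6c1 and Ly6c2, none had a count in the LPS-treated cells of either line.

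Il1rn (chr2:24336853-24351494) encodes the secreted antagonist of the IL-1 receptor. It stood at 873.7 CPM in wild-type, with counts in 10 of 11 cells from 0 over a median of 350.5 to 5056 CPM, and had no counts in the 39 RAW-G9 cells, a level at least 5128-fold higher. Leaving out cell 7 (cells are numbered as in their labels), the highest, left 610.2 CPM. The wild-type Mock cell had no Il1rn counts, and whole RAW-G9 cells reached 1.97 CPM after LPS, with counts in 7.38% of cells. Of the 10 members tested of the IL-1 family and its receptors, 4 lay above and none below all RAW-G9 sums, and Il1rn was the only one with a gap over 1 (all genes 25%, 10.0% and 6.75%). The agonists did not share its pattern. Il1b stood at 323.1 CPM in wild-type and at 85.1, 1482, 0.699 and 60.9 CPM in the RAW-G9 sums, and Il1a at 32.2 CPM in wild-type, all in 1 cell, and at 1190, 554.6, 0 and 156.1 CPM, both within the RAW-G9 range.

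Cd36 (chr5:17781690-17888801), a scavenger receptor that takes up fatty acids and oxidized lipoproteins, stood at 831.3 CPM in wild-type and had no counts in RAW-G9 cells. It was counted in 8 of 11 wild-type cells (72.7%, exact 95% interval 39 to 94), from 0 over a median of 315.4 to 3590 CPM, and cell 18 gave 47.9% of its counts. Without that cell the level was 486.8 CPM. It had no counts in the wild-type Mock cell, in the RAW-G9 Mock biopsies, or in the whole RAW-G9 cells of either state. In edgeR's quasi-likelihood test the log2 fold changes of Ly6e, Il1rn and Cd36 were 15.30 (SE 1.46), 15.04 (SE 1.56) and 14.97 (SE 1.59), and their adjusted p were 0.533, 0.571 and 0.571. The size of such a fold change against sums at 0, and so of its SE, depends on the prior count. Each SE given here is the size of the fold change over the square root of the test's F statistic, not a separate estimate. In the edgeR 4 fit all 3 were called, with adjusted p of 0.032 for Ly6e and of 0.0463 for the others. Among 12 tested genes of lipid uptake and nuclear receptors, 5 lay above and 1 below all RAW-G9 sums, and Cd36 alone had a gap over 1, against 25%, 10.0% and 6.75% of all genes. Cd68, Msr1 and Lpl, which are also scavenger receptors or act in lipid uptake, were detected in both lines, and Pparg had no counts in wild-type cells and 0 to 0.302 CPM in the RAW-G9 sums.

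Csf2ra, the ligand-binding chain of the GM-CSF receptor, was counted in 7 of 11 wild-type cells at 271.3 CPM and in no RAW-G9 cell, at least 1592-fold higher. Csf1r, the M-CSF receptor, was close in both lines, with 1594 CPM in wild-type and 1014, 1622, 1565 and 1262 CPM in the RAW-G9 sums. Among the 9 tested CSF receptors and partners, 3 lay above all RAW-G9 sums by a gap over 1 (6.75% of all genes). Csf2ra was one. Cebpb, a transcription factor of inflammatory genes, had 264.8 CPM in wild-type and 0, 5.03, 14.7 and 0 CPM in RAW-G9. Csf2, which encodes GM-CSF, passed the filter only through 2 wild-type cells. Without cell 15 Csf2 had 3.4 CPM in place of 10.0 CPM and a gap of 0.42, which leaves 2 members. Csf2ra, with no RAW-G9 counts, also passed the filter only through wild-type cells and could not have lain below RAW-G9. Fcrl1, an Fc receptor-like protein better known from B cells, was counted in 7 of 11 wild-type cells at 166.96 CPM and in no RAW-G9 cell after LPS, but it reached 81.8 CPM in a RAW-G9 Mock sum. Zbtb32, a zinc finger repressor, stood at 378.6 CPM in wild-type against 0 to 11.8 CPM, and cell 19 gave 63.7% of those counts, without which it was at 149.7 CPM.

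Another 3 genes, known from earlier results to be higher in wild-type, drew most of their wild-type counts from 1 cell each. Pmaip1, which encodes the BH3-only protein Noxa, stood at 141.2 CPM in wild-type and at 0 in RAW-G9, and 98% of its counts came from cell 5, without which 3.24 CPM remained. Msantd2 stood at 153.5 CPM against 0 to 3.12 CPM, with 89% of its counts from cell 5 and 19.0 CPM without it. Pkd1l2 stood at 117.1 CPM against 0 to 0.704 CPM, with 77.6% of its counts from cell 7 and 27.8 CPM without it. The size of these 3 values thus describes 1 wild-type cell each more than the line. Without those cells the gaps above RAW-G9 were 0.40 for Pmaip1, 1.14 for Msantd2 and 1.82 for Pkd1l2. The 3 genes were counted in 3, 4 and 5 of 11 wild-type cells and in 0, 3 and 1 of 39 RAW-G9 cells. Among 16 tested genes of the BCL2 family and p53 targets, Mdm2, the ubiquitin ligase of p53, was higher across cells, with counts in 11 of 11 wild-type and 19 of 39 RAW-G9 cells and 1644 CPM against 0, 205.1, 417.3 and 254.3 CPM. The anti-apoptotic Bcl2a1d was lower, with 39.1 CPM in wild-type and 156.7, 163.6, 207.6 and 166.5 CPM in RAW-G9, as was Bcl2a1a with 0.963 CPM against 15.3 to 101.3 CPM. Of the 75-base stretches of Bcl2a1d and Bcl2a1a, 67.6% and 53.8% also occur in their paralogs, so that the split of reads between them is uncertain.

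**Figure D2:**
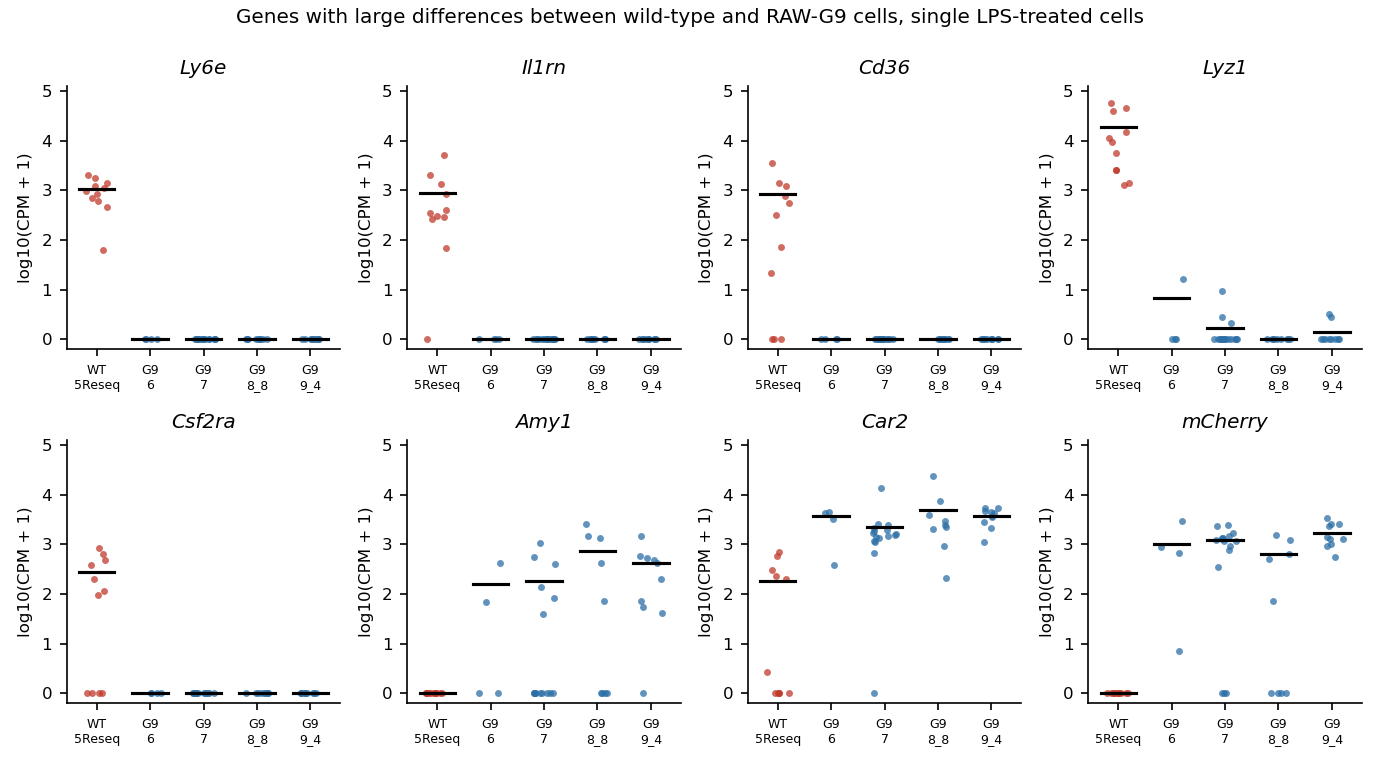
Level of 8 genes in each of the 50 cells (points, log10(CPM + 1)) by batch, wild-type (WT) in red and RAW-G9 (G9) in blue, with the level of the batch sum as a black bar. Ly6e and Lyz1 separate all 11 wild-type from all 39 RAW-G9 cells, Il1rn, Cd36 and Csf2ra are above 0 in wild-type cells only, and Amy1 and mCherry in RAW-G9 cells only.

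In the opposite direction, Amy1 (chr3:113555710-113606699), an alpha-amylase gene, had no counts in the 11 wild-type cells and stood at 157.4, 181.2, 728.4 and 412.3 CPM in RAW-G9. It was counted in 22 of 39 RAW-G9 cells (56.4%, exact 95% interval 39.6 to 72.2), in 2, 6, 5 and 9 cells of batches 6, 7, 8_8 and 9_4. The exact upper bound for 0 of 11 wild-type cells was 28.5%, which takes the cells of 1 batch as independent draws and is no bound for the line. The pooled RAW-G9 level was at least 496.97-fold higher, with an adjusted p of 0.583 in edgeR's quasi-likelihood test and of 3.59e-04 in DESeq2. With each cell thinned to 50000 kept counts, which leaves out 1 RAW-G9 cell, Amy1 was counted in 0 of 11 and 22 of 38 cells, Ly6e in 11 and 0, Il1rn in 10 and 0, and Cd36 in 7 and 0. The Mock cell of wild-type had none, and RAW-G9 Mock biopsies had 204.6 to 1235 CPM and whole RAW-G9 cells 324.9 to 420.4 CPM after LPS, in 96.6% of cells. Amy1 overlaps Rnpc3 on the same strand, which had 1.73 CPM in wild-type and 0 to 57.5 CPM in RAW-G9, and Amy2b, the neighbouring amylase, had no counts in either line.

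Car2 and Car13, cytosolic carbonic anhydrases, were both lower in wild-type cells. Car2 had 181.8 CPM in wild-type and 3665, 2229, 4858 and 3689 CPM in RAW-G9, with counts in 6 of 11 and 38 of 39 cells and a highest wild-type cell of 707.9 CPM. Car13 had 2.12 CPM and 130.5, 199.98, 145.4 and 157.6 CPM. Both sit in 1 stretch of chromosome 3 (GRCm38, chr3:14641727-14900770) that also holds Car1 and Car3. Car1 had no counts in either line and Car3 had none in wild-type and 0 to 0.709 CPM in RAW-G9. The gaps below RAW-G9, 3.55 for Car2 and 3.53 for Car13, exceeded the RAW-G9 ranges of 1.12 and 0.58. In edgeR's quasi-likelihood test their adjusted p were 0.533 and 0.593. Car2 was called in the edgeR 4 fit (adjusted p 0.0261) and not in DESeq2, and Car13 in DESeq2 (adjusted p 0.00817) and not in the edgeR 4 fit. In whole RAW-G9 cells after LPS, Car2 stood at 1761 to 2658 CPM and Car13 at 83.1 to 194.5 CPM.

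The other genes with the largest gaps below RAW-G9 were Spink5, Lsp1, Plau, Hif1a and Gpnmb. Spink5, an inhibitor of serine proteases, had 48.3 CPM in wild-type, in 3 of 11 cells, and 1584, 3774, 1224 and 2340 CPM in RAW-G9, in 38 of 39 cells. Plau, the urokinase plasminogen activator, had 126.9 CPM and 2675, 1314, 1267 and 1188 CPM. Hif1a, the oxygen-regulated transcription factor, had 92 CPM and 998.3, 773.8, 741.7 and 907.6 CPM, a gap of 2.88 against a RAW-G9 range of 0.42. Lsp1, an actin-binding protein of leukocytes, had 13.1 CPM and 275.8, 378.1, 273.3 and 234.2 CPM. Gpnmb, a lysosomal glycoprotein, had 21.6 CPM and 178.7, 472.7, 1668 and 688.3 CPM, and its gap of 2.58 was within the RAW-G9 range of 3.15. All 5 were at 0 in the wild-type Mock cell, which is a single cell with few genes detected, and all were counted in whole RAW-G9 cells in both states.

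A larger share of the interferon-stimulated genes than of all genes lay above RAW-G9. Of 21 tested, 13 lay above all RAW-G9 sums and none below, against 25% and 10.0% of all genes, and 9 did so by a gap over 1. The median difference between wild-type and the mean of the RAW-G9 sums was 2.49 on the log2(CPM + 10) scale, against 0.20 over all genes tested, and no member was called in edgeR's quasi-likelihood test (0.0% of all genes). The list was drawn up with earlier results of these data known. Ly6e, Cxcl10, Rsad2 and Mx1, counted in 0, 3, 2 and 1 of 39 RAW-G9 cells, passed the filter only through wild-type cells. Each lay above by a gap over 1 and, with RAW-G9 sums at 0, could not have lain below. Ifi47, counted in 2 of 39 RAW-G9 cells, also entered so and lay within the range. The shares of the list were not recomputed without these genes. Per cell, the summed level of the list ran from 2548 over a median of 7914 to 22542 CPM in wild-type. In RAW-G9 cells it ran from 0 over 1304 to 4999 CPM, with medians of 723.1, 2767, 36.8 and 1877 CPM in batches 6, 7, 8_8 and 9_4. The cells of the lines thus overlapped, and the median of batch 7 exceeded the lowest wild-type cell. The wild-type Mock cell had 5193 CPM, of which Stat2 made up 4961 CPM.

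Cxcl10, a chemokine that draws activated T cells, stood at 1874 CPM in wild-type and at 2.13, 14.6, 0 and 0 CPM in the RAW-G9 sums, with counts in 8 of 11 and 3 of 39 cells. Rsad2, the antiviral enzyme viperin, stood at 2170 CPM against 0.709, 54.2, 0 and 0 CPM, with counts in 7 of 11 and 2 of 39 cells, and 1 RAW-G9 cell of batch 7 gave 99.8% of the RAW-G9 counts. Both varied widely among wild-type cells, from 0 over 996.6 to 5610 CPM for Cxcl10 and from 0 over 433.6 to 6666 CPM for Rsad2. Ifit1, which binds viral RNA, stood at 1163 CPM against 0.709, 122.1, 0 and 98.1 CPM, Ifit2 at 358.8 CPM against 0.709, 37.6, 0 and 46.6 CPM, and Ifit3 at 176.6 CPM against 0.709, 78.0, 0 and 4.56 CPM. Cmpk2, the neighbour of Rsad2 on chromosome 12, stood at 437.1 CPM against 0, 85.9, 0 and 26.3 CPM, and Mx1, a GTPase that restricts viruses, at 66.1 CPM against 0 to 0.414 CPM. Oasl1, a relative of the oligoadenylate synthetases, stood at 1821 CPM against 762.2, 742.6, 105.6 and 393.6 CPM, with counts in 11 of 11 and 26 of 39 cells. Without cell 19 Ifit2 had 215.9 CPM and Oasl1 a gap of 0.96 in place of 1.25. Without cell 3 Mx1 had 34.9 CPM and Ifit3 a gap of 0.80. For Ifit1, Ifit3, Cmpk2 and Oasl1 the range of the RAW-G9 sums was wider than the gap, and for Cxcl10, Rsad2, Ifit2 and Mx1 it was narrower. Batch 8_8, the shallowest, had no counts for Cxcl10, Rsad2, Ifit1, Ifit2, Ifit3 or Cmpk2.

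Others lay within the RAW-G9 range. Usp18 stood at 184.3 CPM in wild-type and at 0, 258.05, 51.7 and 235.4 CPM in RAW-G9, and Stat2, Ifih1, Oasl2, Gbp2, Ifi47 and Ifi204 were also within it. Among those above it, Isg15 had 160.2 CPM against 25.2 to 85.4 CPM, a gap of 0.83. Cell 19 gave 54.2% of its wild-type counts, and without it the level was 80 CPM, inside the RAW-G9 range. Irf1 and Irf7 also fell inside their range without cell 19, at 49.8 in place of 167.2 CPM and 362.8 in place of 456.8 CPM. Bst2 did so without cell 5, at 93.2 in place of 115.5 CPM. Ifnb1, which encodes interferon beta, had 2 counts in 1 wild-type cell and none in RAW-G9. In whole RAW-G9 cells after LPS, which shared no library with the biopsies, Cxcl10 reached 0.726 to 20 CPM, Rsad2 0 to 10.1 CPM and Ifit1 10.2 to 83.6 CPM, all below the wild-type sum. In wild-type Mock, Cxcl10 and Rsad2 had no counts and Ifit1 had 2.83 CPM.

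**Figure D3:**
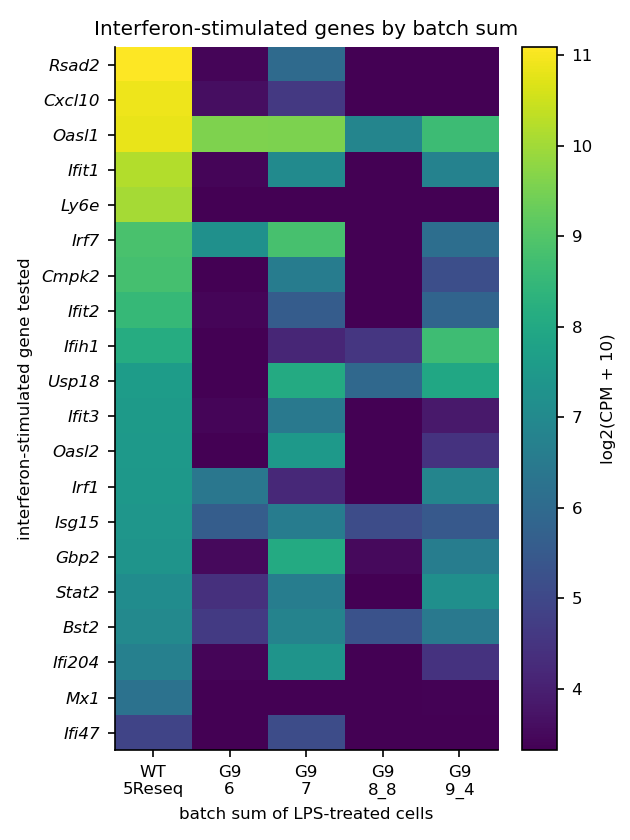
Level of 20 of the 21 interferon-stimulated genes tested (rows, ordered by the wild-type level) in the wild-type sum and the 4 RAW-G9 batch sums (columns), coloured by log2(CPM + 10). The wild-type column is the brightest for 13 genes, and the batch 8_8 column is at the bottom of the scale for Cxcl10, Rsad2, Ifit1, Ifit2, Ifit3 and Cmpk2.

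The same 3 wild-type cells, cells 5, 14 and 18, held the 3 highest levels of Rsad2 (6156, 6666 and 6031 CPM), of Cxcl10 (5610, 4421 and 4720 CPM), of Ccl2, of Cd36, of Lyz1 and of Lyz2. These cells had 2426, 8372 and 3942 genes detected and mitochondrial shares of 16.3%, 27.6% and 18.7%, which were the 3 highest among the wild-type cells. The part of the mitochondrial share in these levels was not tested. Il1rn, Tnf, Ly6e, Ifit1, Csf2ra and Spp1 ranked the cells differently. Cell 7 was highest for Il1rn, cell 15 for Tnf, cell 5 for Ly6e, cell 14 for Csf2ra and cell 9 for Spp1. For Ifit1, also an interferon-stimulated gene, the highest were cells 3, 19 and 14. Counting took no account of strand. The spans, introns included, of Cxcl10 and Art3, of Ccl2 and Gm17268, of Cebpb and Tmem189 and of Hif1a and Gm15283 overlap on opposite strands. Whether their exons overlap was not checked. Ccl2, a chemokine that draws monocytes, stood at 483.7 CPM in wild-type, in 9 of 11 cells, and was counted in 1 of 39 RAW-G9 cells, at 310.95 CPM.

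Genes that LPS is known to induce were partly within and partly above the RAW-G9 range in wild-type cells. Tnf stood at 2261 CPM in wild-type and at 3130, 1772, 1666 and 2231 CPM in the RAW-G9 sums, with counts in 11 of 11 and 38 of 39 cells. Ccl3 stood at 10367 CPM against 12073, 7365, 4449 and 10267 CPM, Nfkbia, the inhibitor that NF-kB induces, at 1227 CPM against 1547, 1563, 701.8 and 2708 CPM, and Cxcl2 at 3179 CPM against 5549, 1497, 1876 and 760.3 CPM. Ptgs2, which makes prostaglandins, stood at 702.3 CPM against 379.3, 1479, 394.9 and 823.7 CPM. Wild-type lay inside the range of the RAW-G9 batches for these 5, which were chosen after their values were seen and whose RAW-G9 sums themselves spread widely (a range of 2.85 for Cxcl2). The log2 fold change of Tnf was 0.25 with an SE of 0.45 and an adjusted p of 1 in edgeR's quasi-likelihood test, which leaves a difference of either sign within the error. Of the 11 tested genes of the LPS response list, 2 lay above all RAW-G9 sums and none below, against 25% and 10.0% of all genes, and the median difference was 0.10 against 0.20 over all genes. Those 2 were the chemokines Ccl4 and Ccl5. Ccl4 had 7694 CPM in wild-type and 3214, 1505, 1364 and 3278 CPM in RAW-G9, with a gap of 1.23 against a range of 1.26. Ccl5 had 2234 CPM and 338.2, 459.3, 72 and 472.5 CPM, with a gap of 2.22 against a range of 2.56.

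**Figure D4:**
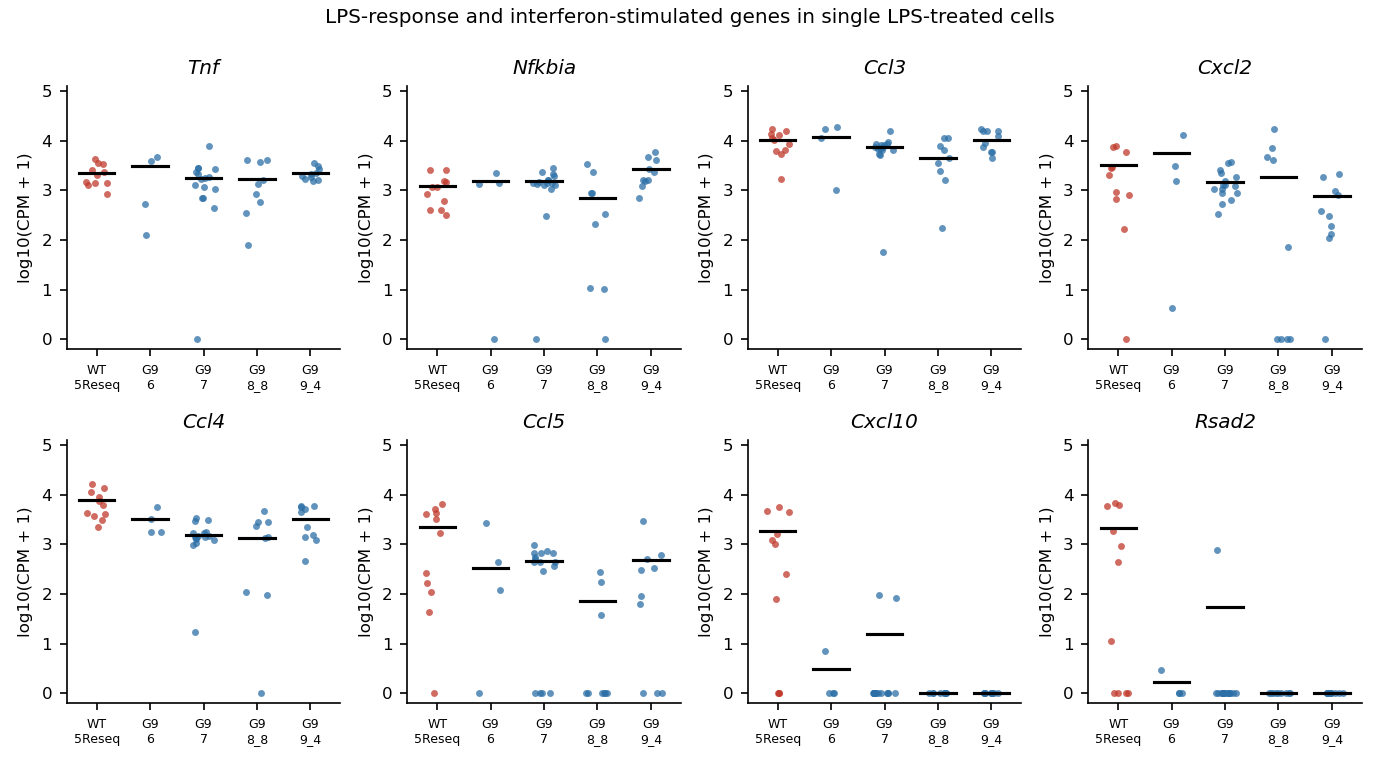
Level of 4 genes within the RAW-G9 range (upper row) and 4 above it (lower row) in each of the 50 cells (points, log10(CPM + 1)) by batch, wild-type (WT) in red and RAW-G9 (G9) in blue, with the level of the batch sum as a black bar. Tnf, Nfkbia, Ccl3 and Cxcl2 overlap between the lines, Ccl4 and Ccl5 are shifted up in wild-type, and Cxcl10 and Rsad2 are at 0 in nearly all RAW-G9 cells.

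Of 15 tested genes of LPS recognition and TLR4 signalling, 4 lay above all RAW-G9 sums, 2 of them by a gap over 1, and none below, against 25%, 6.75% and 10.0% of all genes. Tab2, an adaptor of the kinase TAK1, was one of these 2, with 195.5 CPM in wild-type and 0.709, 65.4, 50.3 and 34.4 CPM in RAW-G9, and its gap of 1.45 was 1.00 without cell 5. Cd14 stood at 4118 CPM in wild-type and at 1641, 4971, 1884 and 2318 CPM, and Myd88 at 156.8 CPM against 0.709, 170.8, 81.8 and 141.01 CPM. Tlr4 itself stood at 66.6 CPM against 0, 15.4, 2.1 and 24.4 CPM, but 78.6% of its wild-type counts came from cell 18, without which it was at 16 CPM, inside the RAW-G9 range. Ticam1, which encodes TRIF, stood at 14.3 CPM against 38.3, 101.7, 3.5 and 28.4 CPM, and Ticam2, its partner, had no counts in wild-type and 0, 99.6, 141.2 and 25.3 CPM in RAW-G9. Of 16 NF-kB subunits and brakes, 2 lay above and 4 below all RAW-G9 sums, with a median difference of -0.73, against 25% and 10.0% of all genes and a median of 0.20. Rela stood at 67.6 CPM against 384.3, 224.4, 74.8 and 315.8 CPM, and at 76.1 CPM, inside that range, without cell 9, and counts from the EGFP-Rela transgene of RAW-G9 cannot be told apart from those of the native gene. Nfkbiz stood at 103.8 CPM against 710.4, 297.7, 160.8 and 168.6 CPM, with a gap of 0.59. Ikbkb was the only member with a gap over 1, and it stood at 40.5 CPM in place of 344.5 CPM, within the RAW-G9 range, once cell 19 was left out.

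Of the 12 macrophage identity genes, 8 lay above all RAW-G9 sums and none below, with a median difference of 1.02, and 3 had a gap over 1, namely Lyz2, Itgam and Tyrobp. Over all genes the shares were 25% above, 10.0% below and 6.75% above by a gap over 1, and the median difference was 0.20. The gap of Tyrobp was 0.60 without cell 7. Itgam, the CD11b integrin chain, stood at 52 CPM against 0 to 7.35 CPM, in 8 of 11 and 1 of 39 cells, and Tyrobp, the adaptor DAP12, at 724.6 CPM against at most 337.6 CPM. Spi1, Ptprc and Csf1r were within the RAW-G9 range. Beyond the lists, Spp1 (osteopontin) and Pkm (pyruvate kinase) are given because of their values. Spp1 stood at 16224 CPM in wild-type, in all 11 cells, and at 3298, 3953, 4340 and 2442 CPM in RAW-G9, and Pkm at 6902 CPM and at 2430, 2274, 2707 and 2925 CPM. Their gaps of 1.90 and 1.24 exceeded the RAW-G9 ranges of 0.83 and 0.36. Spp1 had 8.49 CPM in the wild-type Mock cell and Pkm 3851 CPM.

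Cell cycle genes mostly lay within the RAW-G9 range, which was wide. The S phase list summed to 1745 CPM in wild-type and to 1042, 1600, 3050 and 2431 CPM in RAW-G9. The list of G2 and mitosis summed to 1398 CPM and to 3699, 1659, 2052 and 1193 CPM. Lying within such a range does not show that the lines are alike. Of 12 S phase genes, 1 lay above and 1 below all RAW-G9 sums (25% and 10.0% of all genes), with a median difference of 0.03, and of 12 genes of G2 and mitosis none lay outside, with a median of -0.30. Among sex chromosome genes, 2 of 5 were tested and both lay within the RAW-G9 range. Of 3 nuclear transcripts tested, 2 lay above all RAW-G9 sums by a gap over 1 and 0 below, against 6.75% and 10.0% of all genes. The median difference was 3.69, against 0.20 over all genes. Malat1 stood at 3511 CPM in wild-type against 2.84, 593.3, 404.04 and 1060 CPM. Cell 14 gave 83.2% of its wild-type counts, and without it Malat1 was at 643.3 CPM, within the RAW-G9 range. Neat1 stood at 430.97 CPM against 0 to 121.3 CPM, in 5 of 11 and 13 of 39 cells. The part of nuclear RNA in the levels of other genes was not tested.

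**Figure D5:**
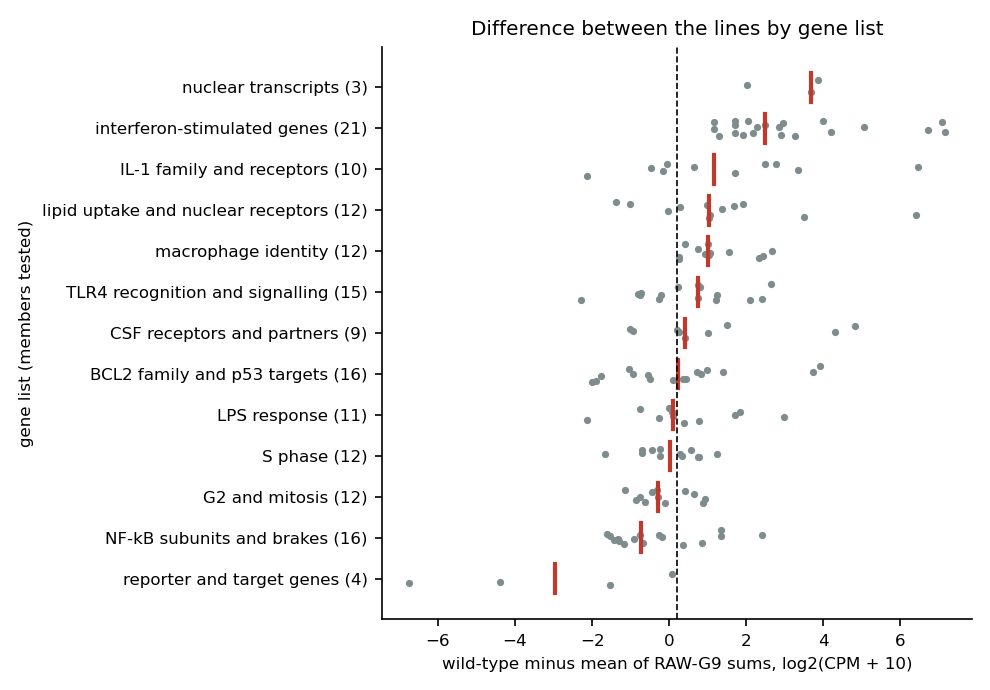
Difference between wild-type and the mean of the RAW-G9 sums for each tested member (points) of 13 gene lists, on the log2(CPM + 10) scale, with the median of each list as a red bar and the median over all genes tested (0.20) as a dashed line. All 21 interferon-stimulated genes lie to the right of the dashed line, and the LPS response list is centred near it.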

How the data were processed

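Read counts per gene and cell were deposited by the authors as whole numbers, not normalized. Per the labels and the methods, reads were aligned with STAR 2.6.1c to the mouse genome (mm10) and counted per gene with HTSeq without regard to strand. Depth is given in kept counts, with 85 ribosomal protein genes and 20 genes that the authors list from negative controls not counted. The table also held 552 columns of samples that were not used here. Symbols were matched for 30340 of 30452 gene identifiers.

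Groups were taken from the labels, and the cells of each batch were summed. Genes with at least 2 counts in 15% of the cells of either line were tested with edgeR's quasi-likelihood test (edgeR 4.0.16, R 4.3.3, TMM normalization, prior count 0.125, Benjamini-Hochberg adjustment). DESeq2 1.42.0 and the newer fit of edgeR were alternatives, as were other scalings, filters, thinning to 50000 kept counts, and leaving out batches or cells in turn. The tests were run on simulated data first. Cells are not replicates, so no test was made across cells. The p-values measure the spread between sums, and the lone wild-type sum is assumed to vary like the RAW-G9 sums. An exact one-sided permutation of 1 sum against 4 cannot go below p = 0.2. Intervals for shares of cells are exact (Clopper-Pearson), take the cells as independent draws and leave out the spread between batches. Intervals for folds are Poisson-based and cover counting error only, and reads carried no molecular identifiers. A fold written as at least rests on 3 counts over the group at 0.

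Members and lists were chosen with earlier results of these data known. The genes named are the 4 line markers, earlier line genes, list members outside the RAW-G9 range by a gap over 1, and the 10 genes with the largest gap in each direction. Spp1, Pkm, Ifnb1 and the members given within the range were chosen after their values were seen. The level of 1 list member is not reported here.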

Additional observations from a re-analysis of the deposited data

Results flagged for a closer look

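Among 46 genes examined for a batch standing apart from the other RAW-G9 sums, 5 passed Dixon's 95% criterion for 4 values, which chance passes in about 1 of 20 groups. Cxcl10 (14.6 CPM), Rsad2 (54.2 CPM) and Ifit3 (78.0 CPM) were highest in batch 7. The Rsad2 value came almost wholly from 1 cell, which gave 99.8% of the RAW-G9 counts. Ccl2 was counted in batch 8_8 alone, at 22.4 CPM in 1 cell. Plau was highest in batch 6, at 2675 CPM. For Cxcl10, Rsad2, Ifit3 and Ccl2 these highest RAW-G9 sums were still below the wild-type sum, and for Plau all RAW-G9 sums were above it.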

How the results depend on the processing

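The number of genes called depended on the fit. In place of 0 higher in wild-type, the edgeR 4 fit gave 7, DESeq2 7, no filter 5, thinned cells 5, cells weighted equally 1 and 9 batch sums with treatment as a covariate 1. In place of 0 lower, the edgeR 4 fit gave 2, DESeq2 19, no filter 2 and thinned cells 1. Leaving out a batch or a wild-type cell gave 0 to 1 higher, the 1 without batch 6, and 0 to 0 lower. With a batch left out, 30.02% to 32.17% of the genes tested lay above all RAW-G9 sums and 11.39% to 21.07% below, the highest share below without batch 6. With a gap over 1 these were 8.18% to 11.04% above, the highest without batch 7, and 3.14% to 5.73% below, with 5.73% without batch 6 and 3.82% without batch 8_8. Leaving out a RAW-G9 sum can only widen these shares. A pseudocount of 1 CPM gave 10.95% above by a gap over 1. Over 25 alternatives each, the log2 difference of Ly6e ranged from 12.07 to 15.84, of Il1rn from 12.08 to 15.58 and of Cd36 from 11.57 to 15.51, with 4 past the threshold for each. That of Amy1 ranged from -14.17 to -10.38 over 26, with 1 past it. Adjusted p ranged from 3.11e-05 to 0.885 for Ly6e and from 3.59e-04 to 1 for Amy1. No direction was reversed for these 4 genes. Ly6e, Il1rn and Cd36 were not tested under the filter on whole cells, which they did not pass. TMM moved the median over all genes from 0.20 to 0.30, and the S phase median of 0.03 became -0.19 with thinned cells and -0.14 with cells weighted equally. No paired analysis was possible because wild-type and RAW-G9 cells share no batch. With 1 wild-type batch, the spread between wild-type batches is unknown.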
